A study of Mus musculus with 16 samples.

Results

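Imprinted genes are read from only the maternal or only the paternal copy of the chromosome. The 10 followed here, chosen by their gene name on the array, were Peg3, Igf2, H19, Igf2r, Meg3, Dlk1, Grb10, Plagl1, Cdkn1c and Mest, and they were covered by 26 probes among 37074 gene names. Peg3 led the choice, because it separated the HFD-microbiota from the lean microbiota more clearly than any other gene, and the question was whether the other imprinted genes were detected in liver and moved with it. Hepatic RNA was measured in male C57BL/6 mice that kept their own, antibiotic-free microbiota and ate normal chow (NC). Mice aged 6 weeks at the start were gavaged with reduced PBS (Conv + PBS, 6 mice, called not transplanted in the labels), with caecal content of lean mice (Conv + LM, 5 mice) or with caecal content of mice fed a high-fat diet (HFD) (Conv + OM(HFD), 5 mice), and liver was taken at 10 weeks after a fast. The inoculum came from pooled donors and the recipients were housed by several to a cage, so that a cage effect and a group effect cannot be told apart. Each of the 16 mice had its own one-colour Agilent array, on which the brightness of a spot rises with the amount of 1 transcript, and the arrays lay on 2 slides that each held all 3 groups.

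Imprinted genes form a network that paces growth before and around birth, and in mouse liver many of its members are turned down after weaning. The ligand IGF2 drives fetal growth, IGF2R removes it from the cell surface for breakdown, and H19 is a non-coding RNA read from the other parental copy of the same domain. PEG3 and PLAGL1 are zinc finger proteins that bind DNA. GRB10 is an adaptor that dampens signalling of the insulin and IGF1 receptors, and CDKN1C is an inhibitor of the cell cycle. DLK1 is a membrane protein that restrains fat cell formation, Meg3 a non-coding RNA of the same domain as Dlk1, and MEST a protein of the hydrolase family that follows fat tissue growth.

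The promoters of Peg3 and Meg3 are shown because they were the members' only promoters that held the palindrome TGACGTCA, known as the cAMP response element, here in capitals. They span 250 bases before to 50 bases after the start of transcription in RefSeq (GRCm38.p6), at chr7:6730370-6730669 on the minus strand for Peg3 and chr12:109540746-109541045 on the plus strand for Meg3, each written 5′ to 3′.
Peg3: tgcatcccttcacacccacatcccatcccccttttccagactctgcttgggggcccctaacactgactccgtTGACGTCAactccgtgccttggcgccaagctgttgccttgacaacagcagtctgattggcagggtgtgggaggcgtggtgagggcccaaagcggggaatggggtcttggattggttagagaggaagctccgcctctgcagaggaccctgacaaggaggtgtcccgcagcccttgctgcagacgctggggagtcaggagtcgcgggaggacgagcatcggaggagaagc
Meg3: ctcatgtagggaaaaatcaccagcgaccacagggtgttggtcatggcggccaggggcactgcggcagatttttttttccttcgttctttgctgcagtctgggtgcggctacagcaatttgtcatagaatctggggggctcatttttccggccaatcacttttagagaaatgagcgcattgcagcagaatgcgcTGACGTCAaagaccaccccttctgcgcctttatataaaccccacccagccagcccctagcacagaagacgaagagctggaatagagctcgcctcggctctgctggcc
Each of the 2 sequences held 13 CG pairs, the letters at which imprinting marks are laid down, a number reached by 37.9% of 32851 mouse promoters of this length. The palindrome, which reads the same on both strands and was searched after the sequences had been read, occurred in 1.79% of all promoters and in 2 of the 15 promoters listed for 8 of the members. The letters GCCATNTT, a form of the motif of the factor YY1 that is a different string from the palindrome, were in 6.05% of all promoters on either strand and in 0 of these 15. A match is a stretch of letters only. H19 and Cdkn1c had no entry.

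Of the 10 genes, 8 had a probe that was called well above background in 5 or more mice, the minimum for keeping it, as did 20400 genes in all. Peg3, Igf2r, Meg3, Plagl1 and Cdkn1c were well above background in every mouse. Grb10 was so in 15 mice, Mest in 13 and H19 in 5. Igf2 was not well above background in any mouse on either of its 2 probes, and Dlk1 was so in 1 Conv + PBS mouse on 1 of 2 probes, so that neither was compared between groups. Of the 26 probes, 12 passed. The ligand gene Igf2 and the membrane protein gene Dlk1 were thus the members not compared, whereas the receptor Igf2r that clears IGF2 was measured in every mouse.

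**Figure D1:**
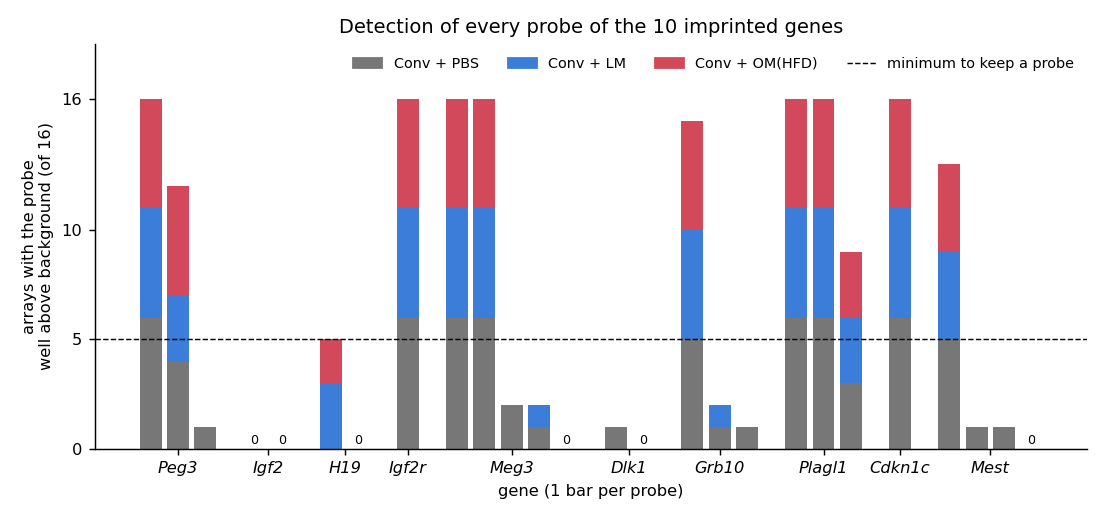
Number of the 16 arrays (vertical axis) on which each probe of the 10 genes was well above background, with 1 bar per probe and the 3 groups of mice stacked in colour. Igf2 stood at 0 on both probes, and H19 had no Conv + PBS mouse among its 5 arrays.

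The arrays were of like quality. The 75th percentile of brightness, which was subtracted from each array on the log2 scale, was 153 to 220 units of intensity, and 49.7 to 58.3% of probes were well above background. A value of 0 below therefore marks a probe as bright as that percentile of its array. Brightness depends on the probe, so levels were compared between mice and never between genes. Liver identity was clear, with all 6 hepatocyte markers (Alb, Apoa1, Ttr, Serpina1a, Hnf4a and Cyp2e1) kept.

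Peg3 was brightest with the HFD-microbiota. Its probe, at chr7:6657078-6657137 on the minus strand of mm9, gave log2 values of -1.70, -1.37, -1.13, -1.58 and -1.62 in the 5 Conv + OM(HFD) mice. In the 5 Conv + LM mice they were -2.95, -1.93, -2.55, -2.29 and -2.48. The 6 Conv + PBS mice ran from -2.67 to -1.41 with a median of -2.32. Every Conv + OM(HFD) mouse thus lay above every Conv + LM mouse, a separation also seen for 0.436% of all genes in that comparison (0.186% in this direction), while 1 Conv + PBS mouse reached the Conv + OM(HFD) range. The mean was -1.48 ± 0.23 (SD, n = 5) with the HFD-microbiota, -2.44 ± 0.37 (SD, n = 5) with the lean microbiota and -2.19 ± 0.46 (SD, n = 6) in Conv + PBS mice. The order from high to low was Conv + OM(HFD), Conv + PBS, Conv + LM, and the last 2 groups differed by less than their spread.

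Peg3 differed between the microbiotas by 0.96 on the log2 scale with a standard error (SE) of 0.22, a 1.95-fold higher level with the HFD-microbiota. Because Peg3 was chosen by this comparison, it is given without a test. It amounted to 0.96 on slide 1 (3 Conv + OM(HFD) mice against 2 Conv + LM mice) and 0.97 on slide 2 (2 against 3). Both are parts of the comparison that chose Peg3, so their likeness lends it no support. Against Conv + PBS mice Peg3 differed by 0.71 (SE 0.21) with the HFD-microbiota and by -0.25 (SE 0.21) with the lean microbiota. After normexp background correction, which lifts dim spots, the difference between the microbiotas was 0.43, and in the authors' own log2 values it was 0.58.

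Peg3 had a second kept probe, at chr7:6658774-6658833 on the minus strand of mm9, well above background in 12 mice (4 of 6 Conv + PBS, 3 of 5 Conv + LM and 5 of 5 Conv + OM(HFD)). On it the Conv + OM(HFD) mice gave -2.78, -2.99, -2.97, -2.13 and -2.49. The Conv + LM mice gave -3.83, -3.18, -3.48, -2.85 and -2.69, and the Conv + PBS mice ran from -4.66 to -2.53 with a median of -3.34. The HFD-microbiota again had the highest mean, at -2.67 ± 0.36 (SD, n = 5), but here the groups overlapped and the lean microbiota, at -3.21 ± 0.47 (SD, n = 5), stood above Conv + PBS mice, at -3.44 ± 0.70 (SD, n = 6). The difference between the microbiotas was 0.54 on this probe. The remaining probe was well above background in 1 mouse. Across the 16 mice, as deviations from the group means, the first and second probe had a Pearson r of 0.48 (permutation p = 0.129) and a Spearman rho of 0.39 (permutation p = 0.168), and r was 0.28 without the 2 mice farthest from the median.

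**Figure D2:**
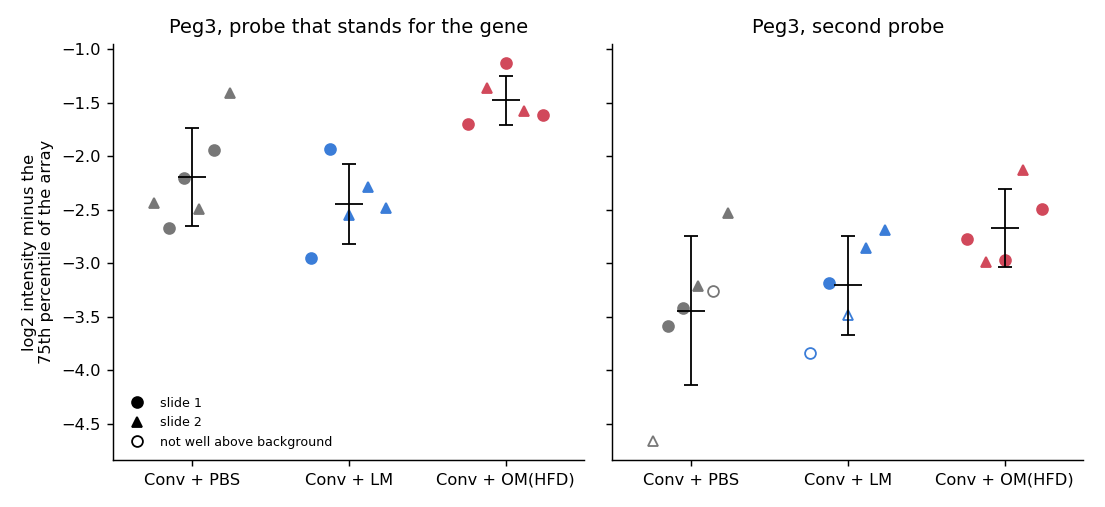
Peg3 in each mouse on its 2 kept probes, as log2 intensity minus the 75th percentile of the array (vertical axis), by group. Bars give mean ± SD, open symbols mark values not well above background, and circles and triangles mark slides 1 and 2. On the left the 5 Conv + OM(HFD) mice all lie above the 5 Conv + LM mice, and on the right the groups overlap.

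Sorted by the statistic of limma, Peg3 came first of 20400 genes between the microbiotas, and the genes next to it were of other kinds. Flt4, the receptor of lymphatic endothelium for VEGFC, followed with a log2 difference of -1.09 (SE 0.27). The array feature chr3:108763862-108772151_F differed by 0.45 (SE 0.12), Gm36767 by -1.09 (SE 0.28), ENSMUST00000121749 by 0.80 (SE 0.21), and Slc37a2, a sugar phosphate transporter, by 0.73 (SE 0.19). Of these neighbours only the array feature was well above background on all 16 arrays. Flt4 and Slc37a2 were so on 11 arrays, ENSMUST00000121749 on 7 and Gm36767 on 5, so their differences rest partly on values near background. By size alone 145 genes differed more than Peg3, 16 of them well above background on every array. None of the other 7 members kept was among these neighbours.

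Between the microbiotas, the comparison that chose Peg3, the other 7 members kept differed by -0.25 to 0.06, with a median of -0.01 against 0.0034 over all genes. The groups overlapped for all 7. H19 differed by -0.25 (SE 0.55), Plagl1 by -0.20 (SE 0.22), Meg3 by -0.12 (SE 0.37), Mest by 0.06 (SE 0.27), Cdkn1c by 0.03 (SE 0.16), Igf2r by -0.01 (SE 0.09) and Grb10 by 0.0081 (SE 0.27). For H19 only 3 Conv + LM and 2 Conv + OM(HFD) values were well above background. Without Conv + LM mouse 14 its Conv + LM mean was -4.40, below the Conv + OM(HFD) mean of -4.21, so the sign turned. These values are a description, without a test. In this comparison 51.0% of all genes had a higher mean with the HFD-microbiota, and 2.67% had an unadjusted limma p under 0.05 (1.38% higher). Each lay within 1 SE of 0.

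The comparisons of either microbiota with Conv + PBS mice, which share those 6 control mice, were tested for the 7 members other than Peg3. With the HFD-microbiota 4 had a higher mean and 3 a lower mean than in Conv + PBS mice (49.3% of all genes had a higher mean), and the median difference was 0.07 against -0.0021 over all genes. With the lean microbiota it was again 4 and 3 (46.9% of all genes had a higher mean), with a median of 0.27 against -0.011. Of the 7 members, 0 passed limma in either comparison once p was adjusted over all genes (Benjamini-Hochberg), and 0.0% of all genes did. At an unadjusted p under 0.05 limma had 0 of the 7 members with the HFD-microbiota, where 3.25% of all genes passed (1.49% higher), and 1 of the 7, H19, with the lean microbiota, where 3.88% of all genes passed (1.79% higher). None of the members separated the groups without overlap, as 0.23% and 0.279% of all genes did. H19 was kept only through transplanted mice, so its call depends on the filter and is not read as a result. Among the 6 members detected in at least 1 Conv + PBS mouse, counted so after the values were seen, 3 had a higher and 3 a lower mean in each comparison, the median difference was 0.03 with the HFD-microbiota and 0.11 with the lean microbiota, and 0 passed limma at an unadjusted p under 0.05.

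**Figure D3:**
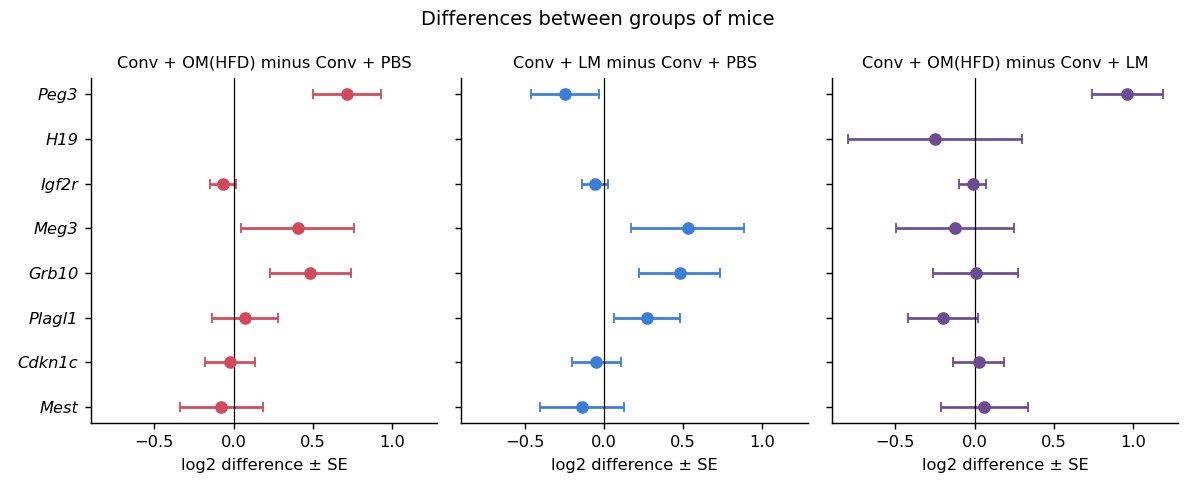
Log2 difference ± SE from limma (horizontal axis) of the 8 imprinted genes kept, for the 3 pairs of groups. Between the microbiotas Peg3, which was chosen there, lies at 0.96 and the other 7 genes lie between -0.25 and 0.06. H19 is drawn only between the microbiotas, where it has the widest error.

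H19, the long non-coding RNA that is abundant in fetal liver, was the least evenly detected member. It was well above background in 0 of 6 Conv + PBS mice, in 3 of 5 Conv + LM mice (mice 14, 16 and 17) and in 2 of 5 Conv + OM(HFD) mice (mice 25 and 29). Because a probe needed 5 arrays to be kept, H19 entered the comparisons through these 5 transplanted mice alone. It was 1 of 6 such genes among the 20400 kept (0.0294%), a share that the filter itself keeps small. The Conv + LM mice gave log2 values of -5.42, -2.20, -4.34, -3.59 and -4.27, and the Conv + OM(HFD) mice -2.83, -5.79, -4.01, -4.01 and -4.43. The Conv + PBS mice ran from -6.07 to -4.64 with a median of -5.19. Each microbiota group overlapped the controls, and its highest mouse was mouse 14 with the lean and mouse 25 with the HFD-microbiota.

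Since the controls were not well above background, their level has only an upper bound, taken on each array as the dimmest probe still well above background or the probe's own value where that was higher. No fold is given. The Conv + LM mean of -3.96 lay above that bound of -4.10, but without mouse 14 it was -4.40, and 2 of its 5 values were themselves not well above background. The Conv + OM(HFD) mean of -4.21 lay below the bound. The measured mean was -5.24 ± 0.54 (SD, n = 6) in Conv + PBS, -3.96 ± 1.18 (SD, n = 5) in Conv + LM and -4.21 ± 1.06 (SD, n = 5) in Conv + OM(HFD) mice. No size of difference against Conv + PBS mice is given for H19. Its limma calls against them, counted above and in the closing sections, depend on the filter and are not read as a result. A second H19 probe was not well above background in any mouse.

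Igf2r, the receptor that clears IGF2, ran from 2.21 to 2.47 in Conv + LM mice, from 2.09 to 2.43 in Conv + OM(HFD) mice and from 2.22 to 2.49 in Conv + PBS mice. Its difference from Conv + PBS mice was -0.06 (SE 0.08; limma, unadjusted p = 0.496, adjusted p = 0.998) with the lean and -0.07 (SE 0.08; limma, unadjusted p = 0.416, adjusted p = 0.99998) with the HFD-microbiota. Its SE was the smallest of the 8 members kept.

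Grb10 was dim, and its means were higher with either microbiota. The Conv + LM mice gave -2.90, -3.08, -3.01, -3.06 and -1.70, and the Conv + OM(HFD) mice -2.25, -3.20, -2.73, -2.72 and -2.81. The Conv + PBS mice ran from -3.78 to -2.58 with a median of -3.25. In Conv + LM mice 4 values lay close together and mouse 17 stood far above them. Grb10 differed from Conv + PBS mice by 0.49 (SE 0.26, unadjusted p = 0.0775, adjusted p = 0.99998 in limma) with the HFD-microbiota and by 0.48 (SE 0.26, unadjusted p = 0.0821, adjusted p = 0.998 in limma) with the lean microbiota. The exact two-sided permutation p was 0.0649 and 0.154. Without mouse 17 the latter difference was 0.22, and without Conv + PBS mouse 4 it was 0.61 (limma, unadjusted p = 0.0296). The former had an unadjusted limma p of 0.0278 without Conv + PBS mouse 4, 0.0422 without Conv + OM(HFD) mouse 26 and 0.0212 without Conv + LM mouse 17. That difference was 0.36 (limma, unadjusted p = 0.194) without Conv + OM(HFD) mouse 25. It was 0.38 (limma, unadjusted p = 0.167) without Conv + PBS mouse 1. Its call stayed the same in 21 alternatives and became stronger in 4. With normexp the differences were 0.16 with either microbiota (limma, unadjusted p = 0.116 with the HFD-microbiota and 0.123 with the lean microbiota), and in the authors' log2 values 0.16 and 0.24 (limma, unadjusted p = 0.275 and 0.119).

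Meg3 varied widely within every group. The Conv + LM mice gave -0.98, -0.81, -1.91, -1.74 and -0.80, and the Conv + OM(HFD) mice -1.10, -1.48, -1.19, -0.71 and -2.38. The Conv + PBS mice ran from -2.68 to -0.70 with a median of -1.75, so that both microbiota groups lay within the range of the controls. The difference from Conv + PBS mice was 0.53 (SE 0.36; limma, unadjusted p = 0.159, adjusted p = 0.998) with the lean and 0.41 (SE 0.36; limma, unadjusted p = 0.272, adjusted p = 0.99998) with the HFD-microbiota. Without Conv + PBS mouse 5 the former was 0.74 (limma, unadjusted p = 0.0410) and without Conv + PBS mouse 3 it was 0.35. The latter was 0.66 without Conv + OM(HFD) mouse 30, 0.23 without Conv + PBS mouse 3 and 0.24 without Conv + OM(HFD) mouse 29. With normexp they were 0.28 and 0.21. A second Meg3 probe followed the first from mouse to mouse, with a Pearson r of 0.92 (permutation p = 5e-05), a Spearman rho of 0.91 (permutation p = 4e-05) and r = 0.89 without the 2 mice farthest from the median. On this probe the differences were 0.41 with the lean and 0.10 with the HFD-microbiota. Its other 3 probes were well above background in 2 mice at most. In whole liver, fewer cells of a type and less RNA per cell cannot be told apart.

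Plagl1, Cdkn1c and Mest did not pass limma at an unadjusted p under 0.05 in either comparison. Plagl1 had a mean of -0.57 ± 0.39 (SD, n = 6) in Conv + PBS, -0.30 ± 0.43 (SD, n = 5) in Conv + LM and -0.50 ± 0.25 (SD, n = 5) in Conv + OM(HFD) mice, and its differences of 0.27 and 0.07 had an SE of 0.21 (limma, unadjusted p = 0.214 and 0.730). Cdkn1c, which is read from the maternal copy, had a mean of 0.37 ± 0.30 (SD, n = 6), 0.32 ± 0.27 (SD, n = 5) and 0.34 ± 0.20 (SD, n = 5) in the same order, with differences of -0.05 and -0.02 (SE 0.16; limma, unadjusted p = 0.759 and 0.888). Mest was at -3.54 ± 0.26 (SD, n = 6), -3.68 ± 0.48 (SD, n = 5) and -3.62 ± 0.62 (SD, n = 5), with differences of -0.14 and -0.08 (SE 0.26; limma, unadjusted p = 0.604 and 0.769), and 1 mouse of each group was not well above background. The 3 probes kept for Plagl1 disagreed. Across mice the probe that stands for the gene had a Pearson r of -0.44 (permutation p = 0.0949; Spearman rho -0.33, permutation p = 0.242) with the second and of -0.56 (permutation p = 0.0331; Spearman rho -0.39, permutation p = 0.165) with the dimmest, which was well above background in 9 mice. Without the 2 mice farthest from the median these were -0.22 and -0.38. The difference of Plagl1 between the HFD-microbiota and Conv + PBS was -0.0054 on the second probe and -0.19 on the dimmest. With the lean microbiota it was 0.03 and -0.28 on these probes, and 0.0092 with the mean of the 3, and on the probe that stands for the gene it was 0.09 without Conv + LM mouse 14.

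**Figure D4:**
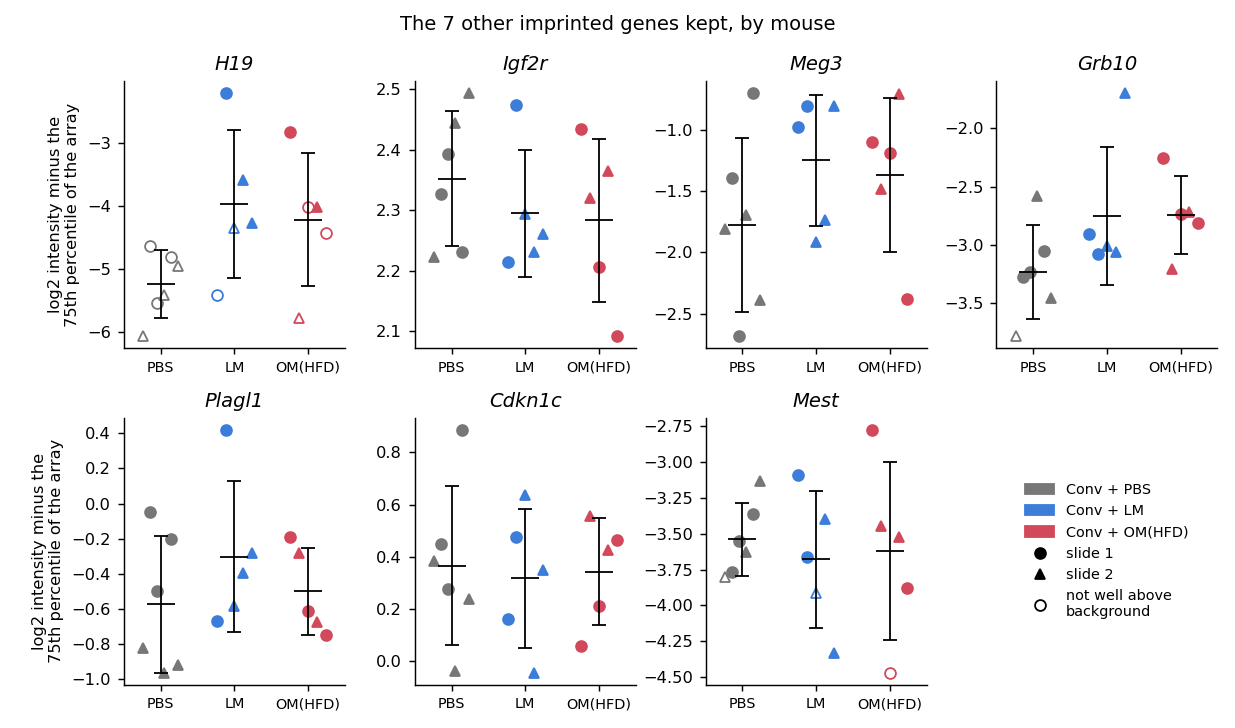
The 7 imprinted genes other than Peg3 in each mouse, as log2 intensity minus the 75th percentile of the array (vertical axes, 1 scale per gene), by group. Bars give mean ± SD, and open symbols mark values not well above background. All 6 Conv + PBS mice are open for H19, mouse 17 stands alone among Conv + LM mice for Grb10, and the groups overlap for every gene.

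To ask whether the other members followed Peg3 from mouse to mouse, group means were removed and each gene was related to Peg3 over the 16 mice. H19, of which 11 of the 16 values were not well above background, had a Pearson r of 0.36 (permutation p = 0.158; Spearman rho 0.33, permutation p = 0.245). It was 0.32 for Igf2r (permutation p = 0.240), 0.16 for Plagl1 (permutation p = 0.607), 0.15 for Cdkn1c (permutation p = 0.636), -0.03 for Mest (permutation p = 0.897), -0.09 for Meg3 (permutation p = 0.777) and -0.21 for Grb10 (permutation p = 0.475). Spearman rho ran from -0.16 for Grb10 to 0.33 for H19. None of the 7 passed at an unadjusted p under 0.05, against 9.25% of the 20326 genes with a value in every mouse, and adjusted p ran from 0.655 to 0.978. Without the 2 mice farthest from the median of Peg3 (Conv + PBS mouse 6 and Conv + LM mouse 14), r was 0.14 for H19 and -0.15 for Igf2r. The members were thus spread over the middle of the distribution of all genes, where 95% of r lay between -0.63 and 0.56.

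**Figure D5:**
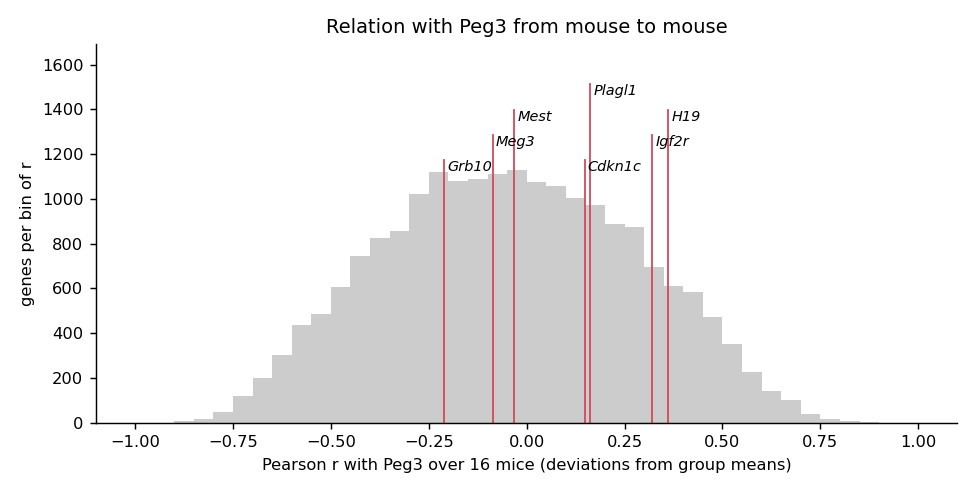
Distribution over 20326 genes of Pearson r with Peg3 across 16 mice after removal of group means (horizontal axis r, vertical axis number of genes per bin). Red lines mark the 7 other imprinted genes, from -0.21 for Grb10 to 0.36 for H19, all within the central part of the distribution.

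The genes whose pattern was most like that of Peg3 were the array features chr15:102032892-102033838_R (r = 0.89) and chr17:79959134-79972206_F (r = 0.89), Tead2 (r = 0.88), A130010C12Rik (r = 0.87) and AK037499 (r = 0.85). TEAD2 is a DNA-binding partner of YAP. The most opposite were Nif3l1 (r = -0.94), Tfb1m (r = -0.88), Elp2 (r = -0.87), Ifi35 (r = -0.87) and Exosc10 (r = -0.86). TFB1M modifies the RNA of the mitochondrial ribosome, IFI35 is induced by interferon, ELP2 is a subunit of Elongator and EXOSC10 one of the RNA exosome. For Nif3l1, whose rho was -0.93, r stayed at -0.93 without the 2 mice. After Benjamini-Hochberg adjustment the permutation test left 0 genes, with a smallest adjusted p of 0.136, and 100000 permutations allow a single gene no adjusted p below 0.203. When the kept probes of each gene, those of Peg3 included, were averaged instead, 142 of 20285 genes passed, 77 with positive and 65 with negative r. None of the other members was among them. Of these 142, 141 had the same sign with the first Peg3 probe alone and 107 an unadjusted permutation p under 0.05.

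Genes beside Peg3 in its imprinted domain were hardly seen. Of 6 on the array, Zim3 was kept, well above background in 7 mice, with differences from Conv + PBS mice of 0.22 and 0.63 (limma, unadjusted p = 0.747 and 0.362) with the HFD-microbiota and the lean microbiota. Each Zim3 difference leaned on a single mouse. Conv + OM(HFD) mouse 26 was at -1.54 with the next of its group at -3.89. Conv + LM mouse 14 was at -1.75 with the next of its group at -3.81. Usp29, Zim1, Zim2 and Peg3os were well above background in 1 mouse each and Zfp264 in none.

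Among 69 further imprinted genes, 68 were on the array and 47 were kept. With the HFD-microbiota 22 of these 47 had a higher mean than in Conv + PBS mice, and with the lean microbiota 24, with medians of -0.0053 and 0.02 against -0.0021 and -0.011 over all genes. At an unadjusted p under 0.05, limma had 1 of the 47 with the HFD-microbiota, Dcn, which was lower, and 1 of the 47 with the lean microbiota, Ddc, which was higher, against 3.25% and 3.88% of all genes. Dcn encodes the matrix proteoglycan decorin, and its difference was -0.26 (SE 0.11, unadjusted p = 0.0362, adjusted p = 0.99998 in limma). Ddc encodes the enzyme that makes dopamine and serotonin, and its difference was 0.62 (SE 0.29, unadjusted p = 0.0466, adjusted p = 0.998 in limma). The exact two-sided permutation p was 0.0455 for Dcn and 0.0996 for Ddc. Adjusted over all genes, limma left 0 of the 47. Dcn is also a gene of stellate cells and fibroblasts, and of the 10 stellate cell markers 5 had a higher and 5 a lower mean with the HFD-microbiota. At an unadjusted limma p under 0.05, 2 of the 10 were lower (Lrat by -0.63 and Colec11 by -0.27) and 0 higher, while Col1a1 had a difference of 0.64 and Col1a2 of 0.44. The part of those cells in the level of Dcn was not tested. Dcn passed in 20 of 26 alternative settings and Ddc in 10 of 26.

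Among the partners of IGF2 and the genes of fetal liver no member passed. Of 13 IGF receptors, binding proteins and related genes 12 were kept, 0 of them at an unadjusted p under 0.05 in either comparison, where 3.25% and 3.88% of all genes passed, with medians of -0.08 with the HFD-microbiota and 0.06 with the lean microbiota. Of 8 fetal liver genes and their repressors 5 were kept, again 0 at an unadjusted p under 0.05. Afp, the α-fetoprotein gene, differed from Conv + PBS mice by 0.07 (limma, unadjusted p = 0.838) with the HFD-microbiota and by 0.40 (limma, unadjusted p = 0.278) with the lean microbiota, and of the embryonic globin genes Hbb-bh1 was well above background in 2 mice and Hbb-y and Hba-x in none.

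Of 10 genes that write or keep imprints, 9 were kept. At an unadjusted p under 0.05 limma had 2 of the 9 with the HFD-microbiota, Dnmt3b higher and Dnmt1 lower, where 3.25% of all genes passed. With the lean microbiota it had 3 of the 9, Dnmt3b higher and Dnmt1 and Zfp57 lower, where 3.88% of all genes passed. Adjusted over all genes, limma left 0 of the 9. Dnmt3b, which adds methyl groups to unmethylated DNA, ran from -1.08 to -0.62 in Conv + PBS mice with a median of -1.01. It was at -0.18, -0.37, -1.12, -0.35 and -0.03 in Conv + OM(HFD) mice and at -0.15, -0.58, -0.68, -0.99 and -0.25 in Conv + LM mice. Thus 4 of 5 Conv + OM(HFD) mice and 3 of 5 Conv + LM mice lay above all controls. The difference was 0.54 (SE 0.18, unadjusted p = 0.0108, adjusted p = 0.99998 in limma) with the HFD-microbiota and 0.42 (SE 0.18, unadjusted p = 0.0383, adjusted p = 0.998 in limma) with the lean microbiota, with exact two-sided permutation p of 0.0281 and 0.0303.

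Dnmt1, which copies methylation after replication, had a mean of -1.60 ± 0.13 (SD, n = 6) in Conv + PBS mice, of -1.82 ± 0.14 (SD, n = 5) with the HFD-microbiota and of -1.87 ± 0.20 (SD, n = 5) with the lean microbiota. The differences were -0.22 (SE 0.10, unadjusted p = 0.0476, adjusted p = 0.99998 in limma) and -0.27 (SE 0.10, unadjusted p = 0.0151, adjusted p = 0.998 in limma), with exact two-sided permutation p of 0.0173 and 0.0281. With normexp they were -0.08 (limma, unadjusted p = 0.321) and -0.11 (limma, unadjusted p = 0.166). Zfp57, the zinc finger protein that protects imprints in the early embryo, was at -4.33, -4.67, -3.84, -2.96 and -3.32 in Conv + LM mice, the first 3 of which were not well above background, and ran from -3.48 to -2.55 in Conv + PBS mice with a median of -3.00. Its difference was -0.79 (SE 0.26, unadjusted p = 0.00823, adjusted p = 0.998 in limma), with an exact two-sided permutation p of 0.0476. With normexp it was -0.19 (limma, unadjusted p = 0.0502) and in the authors' log2 values -0.26 (limma, unadjusted p = 0.0426). With the HFD-microbiota Zfp57 differed by -0.18 (limma, unadjusted p = 0.491).

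Markers of other cells and tissues were set beside the members, as the summed brightness of each of 10 lists. The brightest probes of a list weigh most in such a sum. The ranges of Conv + OM(HFD) and Conv + LM mice overlapped for all 10 lists. Of 80 relations between 8 members and 10 lists across mice, 0 passed after Benjamini-Hochberg adjustment of the permutation p. For Peg3 the closest was the adrenal gland list, with r = 0.76 (permutation p = 0.00427, adjusted 0.0918), rho = 0.67 (permutation p = 0.0111, adjusted 0.221) and r = 0.50 without the 2 mice. Of its 6 genes Star and Hsd3b1 were kept, while Dbh was well above background in 2 mice and Cyp11a1, Cyp11b1 and Chga in none. Its summed brightness was 0.336 to 0.469 times the 75th percentile in Conv + OM(HFD) mice, 0.347 to 0.531 in Conv + LM mice and 0.341 to 0.637 in Conv + PBS mice, and its part in the level of Peg3 was not tested. Hsd3b1 was lower with the HFD-microbiota than in Conv + PBS mice, by -0.54 (SE 0.24; limma, unadjusted p = 0.0376, adjusted p = 0.99998), and Star differed by 0.08 (limma, unadjusted p = 0.658). For Meg3 the largest r was that with the skeletal muscle list, -0.81 (permutation p = 0.00108, adjusted 0.0864; rho -0.67, permutation p = 0.0104), of whose 6 genes Tnnt3 and Myh4 were kept, while Acta1 and Mb were well above background in 4 mice each and Ckm and Myh1 in none. The stellate cell list, all 10 genes kept, had with Meg3 r = 0.70 (permutation p = 0.00441, adjusted 0.0918) and rho = 0.81 (permutation p = 0.00078, adjusted 0.0624), and r = 0.70 without the 2 mice farthest from the median of Meg3. It summed to 24.4 to 45.7 in Conv + OM(HFD) mice, 24.7 to 49.5 in Conv + LM mice and 25.9 to 38.3 in Conv + PBS mice.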

How the data were processed

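Liver RNA (200 ng per mouse) was measured on 16 arrays, each of a different mouse. The authors scanned the arrays and extracted them with Agilent Feature Extraction 10.10.1.1 (per the submitters' processing notes); the deposited intensity values are corrected for background within each array and not between arrays. A second table, of log2 values the authors had processed, was used as an alternative only. Gene names and probe positions (mm9) are those of the array design. Samples were grouped by their labels.

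Control and outlier spots were left out. Each array was scaled, on the log2 scale and after averaging repeat spots, to its 75th percentile. Probes called well above background in 5 or more of the 16 mice were kept (30659 probes, 20400 genes), and the probe with the highest mean stood for a gene. All 3 groups were fitted together with lmFit and eBayes in limma 3.58.1 (R 4.3.3), with Benjamini-Hochberg adjustment over all genes. Exact two-sided permutation tests over mice had a smallest possible p of 0.00216 (5 mice against 6). Relations across mice used 100000 permutations within groups in Python 3.11.15 (numpy 2.4.6, pandas 2.3.3), and plots matplotlib 3.10.9. The fit and the relation were tested on simulated data. Nothing in the labels states technical replicates, so p-values measure the spread between mice, and the number of mice limits the precision.

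Members and gene lists were chosen with earlier results of these data known. Named genes were all members, the 5 genes nearest to Peg3 between the microbiotas, and the 5 highest and 5 lowest r with Peg3. Genes of the imprinted, IGF2 partner, fetal liver and imprint lists were named at an unadjusted limma p under 0.05 against Conv + PBS. Marker genes were not named by that rule. Zim3, Usp29, Zim1, Zim2, Peg3os, Zfp264, Afp, Hbb-bh1, Hbb-y, Hba-x, the marker genes and the genes nearest to Meg3 were named after their values were seen. Alternatives were normexp (offset 50), quantile normalization, the authors' values, no or a stricter filter and the slide as a block. Others were the mean of a gene's probes, the mice compared only, array weights, an unpaired t-test and leaving out each mouse. The paper names such a t-test for its statistics in general and no test for the arrays.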

Additional observations from a re-analysis of the deposited data

Results flagged for a closer look

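Among 36 groups of mice (12 kept probes in 3 groups), 1 held a mouse far from the others, and chance gives about 5% of groups. Grb10 was at -1.70 in Conv + LM mouse 17, while the next highest of its group was -2.90 and the lowest -3.08, a gap of 0.872 of the range against a critical value of 0.710.

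Of the 14 probes left out as too dim, 8 were well above background in at least 1 mouse. On 6 of them a Conv + PBS mouse was above every transplanted mouse, among them a Mest probe (A_66_P103516) at -0.73 in Conv + PBS mouse 1. The other 2 were well above background and above every Conv + PBS mouse in a single transplanted mouse. A Meg3 probe (A_55_P2736010) was at -1.97 in Conv + LM mouse 14, with the highest Conv + PBS mouse at -3.65. A Grb10 probe (A_52_P40363) was at -0.53 in Conv + LM mouse 15, with the highest Conv + PBS mouse at -4.21. The probe that stands for Grb10 was at -3.01 in that mouse.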

How the results depend on the processing

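The log2 difference of Peg3 between the microbiotas, which chose it, was 0.43 with normexp and 0.58 with the authors' log2 values, each moved by more than the spread between mice (SD 0.31), and 0.84 to 1.09 with each mouse left out in turn. The number of other members at an unadjusted p under 0.05 against Conv + PBS, 0 with the HFD-microbiota, was 1 with normexp, with quantile normalization and with the authors' values (H19 each time), 2 with the mice compared only (H19 and Grb10), and 0 to 2 with each mouse left out. With the lean microbiota the number, 1, was 0 with probes detected in every mouse only, where H19, Grb10 and Mest have no value, and 0 to 2 with each mouse left out. Adjusted, it was 0 under all 26 alternatives. The unpaired t-test gave 0 and 1 unadjusted and 0 and 0 adjusted. In the relation with Peg3, 1 member (H19) had an unadjusted p under 0.05 with normexp (r = 0.43, permutation p = 0.0354) and with the authors' values (r = 0.45, permutation p = 0.0445), and 0 members an adjusted one under all 23. H19 was kept only through transplanted mice, so its place in these counts depends on the filter.

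Signs turned for the following differences and r. The difference with the HFD-microbiota was, for Plagl1, -0.040 with the mean of its probes, -0.018 with array weights and -0.0039 to 0.18 with each mouse left out. For Cdkn1c it was 0.0048 with array weights and -0.10 to 0.082 with each mouse left out, and for Mest 0.032 with normexp and -0.29 to 0.13. With the lean microbiota it was -0.13 to 0.055 for Cdkn1c with each mouse left out, and for Mest 0.014 with the authors' values and -0.29 to 0.025. The r with Peg3 under normexp was -0.0024 for Igf2r, against 0.32 as reported, -0.20 for Plagl1, -0.078 for Cdkn1c and 0.27 for Mest. It was 0.14 for Mest with the authors' values, and with the mean of all probes 0.19 for Grb10, -0.14 for Plagl1 and 0.048 for Mest. With each mouse left out it was -0.23 to 0.13 for Meg3, -0.13 to 0.46 for Plagl1 and -0.27 to 0.17 for Mest. The cause was not tested.

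Of the other genes named from the lists, Dnmt3b with the HFD-microbiota stayed at an unadjusted p under 0.05 in all 26 alternatives (0.000313 to 0.0360), whereas with the lean microbiota it did in 17 of 26, Dnmt1 in 14 with the HFD-microbiota and 25 with the lean microbiota, Zfp57 in 24 of 25, Dcn in 20 of 26 and Ddc in 10 of 26. The largest p was 0.321 for Dnmt1 with the HFD-microbiota under normexp (difference -0.08), and the largest without 1 mouse was 0.101 for Dcn (Conv + OM(HFD) mouse 25), 0.155 for Ddc (Conv + LM mouse 17), 0.139 for Dnmt1 with the HFD-microbiota (Conv + OM(HFD) mouse 30) and 0.111 for Dnmt3b with the lean microbiota (Conv + LM mouse 13). No paired analysis was possible because no mouse number occurs in more than 1 group. H19, Grb10, Mest and the second Peg3 probe lie near background, which limits their precision.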

Other observations

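Some mice stood high for several imprinted genes at once. Conv + OM(HFD) mouse 25 was the highest of its group for 5 of the 8 members kept (H19, Igf2r, Grb10, Plagl1 and Mest), though the lowest for Peg3, and Conv + LM mouse 14 was the highest of its group for 4 (Peg3, H19, Igf2r and Plagl1). Conv + PBS mouse 1 and Conv + LM mouse 13 were each the lowest of their group for 4. The counts were made after the values were seen and were not tested. The share of all genes for which each mouse was the highest or lowest of its group was not counted.

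The genes closest to Meg3 across the 16 mice, looked up after the values were seen, were Prkcdbp (r = 0.87), Sparc (r = 0.87), Hpse (r = 0.85), Cd34 (r = 0.84) and Pdgfrb (r = 0.83). Sparc, an extracellular matrix protein, had a permutation p of 4e-05, an adjusted p of 0.407, a Spearman rho of 0.89 (permutation p = 5e-05) and r = 0.85 without the 2 mice farthest from the median of Meg3. After adjustment 0 of 20326 genes passed, and 1295 had an unadjusted permutation p under 0.05. Of the 10 stellate cell genes 8 had a positive r with Meg3, with a median of 0.50, led by Pdgfrb and Col3a1 (r = 0.81), while Des, Lrat and Reln lay between -0.37 and 0.10. All 6 hepatocyte genes had a negative r, with a median of -0.44, against -0.09 over all genes. Of the 8 endothelial genes 2 had a positive r, with a median of -0.29. Mirg, a non-coding RNA of the same imprinted domain, had r = -0.09 with Meg3, and r = 0.17 without the 2 mice. It was well above background in only 8 of the 16 mice, which limits its precision.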
